A study of Mus musculus with 56 samples.

Results

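The genes followed here are 35 genes of sterol and fatty acid synthesis in mouse regulatory T cells, out of 55011 gene symbols in the table of counts. They were chosen by symbol for their roles: 5 regulators of the SREBP system (Srebf1, Srebf2, Scap, Insig1, Insig2), 7 enzymes of the mevalonate and isoprenoid steps (Acat2, Hmgcs1, Mvk, Pmvk, Mvd, Idi1, Fdps), 11 enzymes that make squalene and shape the sterol ring (Fdft1, Sqle, Lss, Cyp51, Tm7sf2, Msmo1, Nsdhl, Hsd17b7, Ebp, Sc5d, Dhcr7), 3 sterol carriers and exporters (Stard4, Abca1, Abcg1) and 9 enzymes of fatty acid synthesis and desaturation (Acly, Acss2, Acaca, Fasn, Scd1, Scd2, Elovl6, Fads1, Fads2). After a filter on low counts, 33 of the 35 could be tested in mouse tissue, where Scd1 and Fads2 were too low, and 34 in culture, where Scd1 was too low.

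Cells build cholesterol from acetyl units through mevalonate, isoprenoids and squalene, which is then folded into a sterol ring and trimmed. SREBP2, encoded by Srebf2, turns on most of these enzyme genes when membrane sterol is low, Scap escorts it for activation, and the Insig proteins hold it back when sterol is plentiful. SREBP1, encoded by Srebf1, acts more on fatty acid genes, while Abca1 and Abcg1 export cholesterol and are induced by the oxysterol receptors of the LXR family.

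The 51 mouse libraries came from C57BL/6 mice that carry the transgenic T cell receptor vTreg53. Feeding with the diets abbreviated NCD and HFD began at 12 weeks of age and lasted 2, 4, 8 or 16 weeks, and further mice were taken at week 0. Tregs, the Foxp3-dependent CD4 T cells that restrain immune responses, were sorted by the transgenic receptor from spleen or visceral adipose tissue (VAT). Each library held 1000 cells, and all mouse results concern Tregs of a single clonotype. There were 3 libraries per group, except 2 for spleen at NCD week 4 and for VAT at HFD week 4 and at NCD week 16. The other 5 libraries were cultures of PPARγ+ VAT Tregs from mice with tdTomato knocked in at PPARγ on both alleles and GFP knocked in at Foxp3, aged 8 to 10 weeks and given 2 doses of IL-33. These cells were cultured for 3 days in IL-2 (2000 U/ml) and IL-33 (10 ng/ml), in 3 libraries without and 2 libraries with 50 ng/ml interferon-α (IFNα), and re-sorted for Foxp3-GFP. The labels do not say whether libraries of a group came from separate mice or cultures, so the p-values measure only the spread between libraries.

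The letters upstream of RefSeq starts of 3 members carry the core of the sterol regulatory element, the DNA site through which SREBP2 acts. They are shown because these genes are among those followed below. Promoter sequence (RefSeq, GRCm38.p6) was found for 27 of the 35 members, with 35 start sites in all. The motif TCACNCCA, searched on both strands over the 250 bases before each start, was present in 3.67% of 32817 promoters in the table and in 3 of the 35 members' promoters, those of Srebf2, Hmgcs1 and Msmo1. The CCAAT motif, the letters of the NF-Y box, was present in 33.8% of all promoters and in 60% of the members' promoters. By role, a member was counted if any of its starts had CCAAT, a measure unlike the shares of promoters just given. Of members with a promoter, 9 of 9 of the squalene and ring steps and 5 of 6 of the mevalonate steps had CCAAT. So did 4 of 5 SREBP regulators and 2 of 6 fatty acid genes, and Abca1, the 1 transport gene found, had none. In the stretches below, read 5′ to 3′ on each gene's own strand, capitals mark TCACNCCA and CCAAT, the latter written ATTGG where it lies on the opposite strand. The motifs can share the letters CCA, and do not overlap here. A match describes the letters only, and the Msmo1 stretch lies within that gene as the GENCODE M21 annotation places it.
Srebf2, chr15:82147095-82147150, plus strand: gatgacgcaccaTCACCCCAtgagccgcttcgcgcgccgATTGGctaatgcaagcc
Hmgcs1, chr13:119690102-119690322, plus strand: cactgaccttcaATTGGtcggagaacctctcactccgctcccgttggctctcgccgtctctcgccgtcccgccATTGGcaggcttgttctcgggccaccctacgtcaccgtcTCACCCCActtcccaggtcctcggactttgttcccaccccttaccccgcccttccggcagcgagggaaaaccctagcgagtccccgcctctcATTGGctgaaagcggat
Msmo1, chr8:64733658-64733767, minus strand: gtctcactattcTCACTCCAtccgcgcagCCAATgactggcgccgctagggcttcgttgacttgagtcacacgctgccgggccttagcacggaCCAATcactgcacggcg

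Levels below are CPM, counts scaled to library size after TMM, a correction for library composition, with mice and cultures scaled separately. A spleen library had 3248686 to 5826965 counts, a VAT library 3319873 to 6091439 and a culture 5408696 to 8764390, and 3 counts, taken as the floor of detection, were worth 0.341 to 1.01 CPM. Foxp3 was present in all libraries (553 to 1267 CPM). Pparg, the marker of VAT Tregs, was at 0 to 7.23 CPM in spleen and 18.2 to 130.4 CPM in VAT, and at 3.90 to 8.02 CPM in the cultures. The spleen libraries carry the VAT tissue label, and the tissue was taken from the titles.

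Without HFD (week 0 and the NCD weeks, 14 libraries per tissue), the most abundant member per length of exon in VAT Tregs was Acly, which cleaves citrate into acetyl-CoA, at 68.6 ± 5.83 CPM per kb (SD). Ebp, Insig1, Hmgcs1 and Cyp51 followed at 45.5, 45.0, 44.3 and 40.3 CPM per kb, 4 means that differed by less than the SD of Insig1 (13.8). At the other end, Abca1 stood at 0.800 ± 0.245 CPM per kb, and Scd1 and Fads2 had at most 10 counts in any mouse library. Scd2, the close copy of the desaturase Scd1, was present at 7.02 ± 2.55 CPM per kb in VAT and 17.9 ± 2.67 in spleen.

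Which members differ between the 2 tissues was asked over these 14 and 14 libraries. Most sterol synthesis genes were higher in VAT Tregs than in spleen Tregs, while both cholesterol exporters and the desaturases Scd2 and Fads1 were lower. By edgeR's quasi-likelihood test with Benjamini-Hochberg adjustment over all genes, 18 of 33 members were higher, against 29.1% of all genes tested, and 4 were lower, against 30%. The median log2 fold change of the members was 0.31, and that of all genes -0.04. The largest rise was that of Hsd17b7, a ketosteroid reductase of the ring steps, from 13.2 ± 4.66 CPM in spleen to 45.2 ± 9.24 CPM in VAT (log2 fold change 1.82 ± 0.16, SE, adjusted p = 7.71e-14). Insig1, which retains SREBP in the endoplasmic reticulum, rose from 55.1 ± 13.7 to 139.2 ± 42.5 CPM (1.32 ± 0.13, adjusted p = 7.81e-12). Srebf2 rose from 171.9 ± 15.2 to 234.3 ± 23.0 CPM (0.45 ± 0.05, adjusted p = 2.47e-10). These 3 rises were far larger than their errors, yet the lowest VAT library lay within the spleen range for each. For Hsd17b7 the spleen libraries ran from 2.68 to 22.5 CPM (median 13.2) and the VAT libraries from 17.8 to 61.9 CPM (median 46.6). For Insig1 the ranges were 22.6 to 73.4 CPM (median 58.0) and 54.4 to 238 CPM (median 140.9). For Srebf2 they were 153 to 205 CPM (median 167) and 195 to 275 CPM (median 229).

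Scd2, which puts the first double bond into saturated fatty acids, was the 1 called member whose tissues did not overlap, at 5.63 to 56.3 CPM in VAT (median 39.3) and 76.7 to 115 CPM in spleen (median 101). The share of all genes with such separate ranges was not counted, so the separation of Scd2 adds nothing to its call. It was lower in VAT by 1.39 ± 0.16 on the log2 scale (adjusted p = 8.3e-10). Abcg1 was lower in VAT (104 ± 24.5 against 173 ± 29.9 CPM, log2 fold change -0.73 ± 0.11, adjusted p = 3.59e-07), and so was Abca1 (8.29 ± 2.54 against 15.5 ± 4.25 CPM, -0.89 ± 0.17, adjusted p = 2.01e-05). In bulk samples fewer cells of a type and less RNA per cell cannot be told apart, here and below. VAT libraries also had more RNA of stress genes (immediate early and heat shock, 19 of 20 higher) and of cell cycle genes (16 of 16 higher), and the part of these in the members' differences was not tested.

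**Figure D1:**
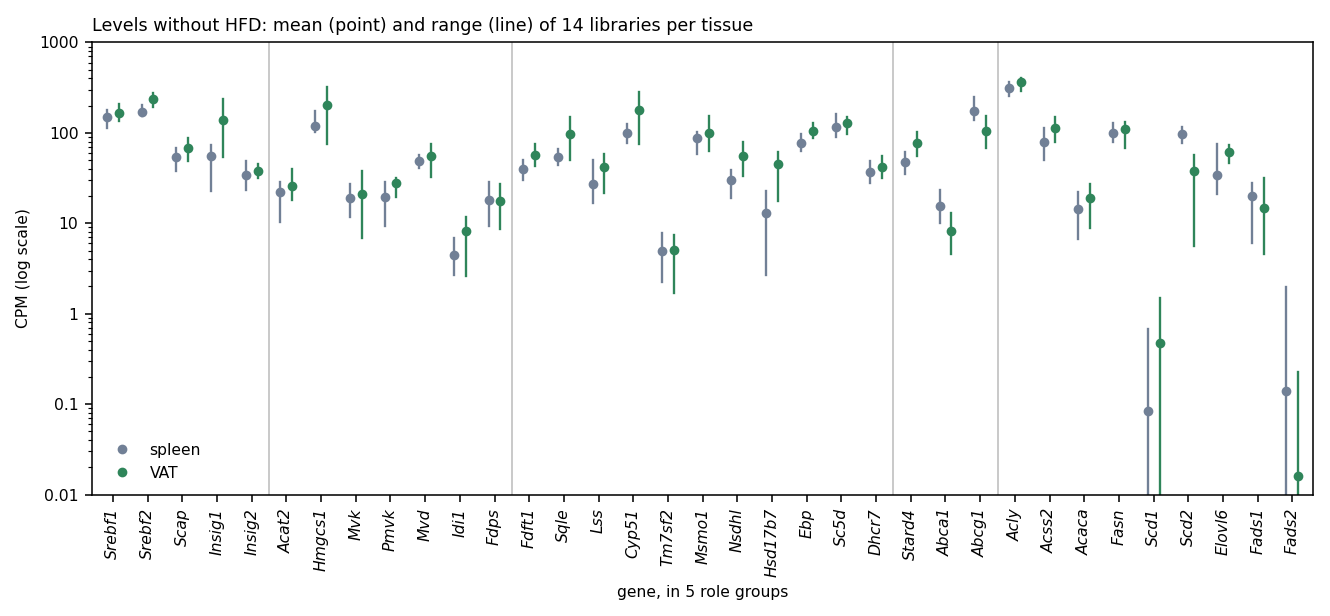
Mean level (points) and range (lines) of each member over the 14 VAT and 14 spleen libraries without HFD, in CPM on a log axis, grouped by role; ranges of Scd1 and Fads2 that reach 0 are drawn to the edge of the axis. Scd2 is the called member with separate ranges, a share not counted over all genes, and Hsd17b7 and Insig1 show the largest rises in VAT.

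The central question of the series, what HFD does to these cells, was asked in VAT at week 16, with 3 HFD and 2 NCD libraries. Genes for 13 of the 18 steps from Acat2 to Dhcr7 were lower with HFD, and the cholesterol exporter Abca1 was higher. Of 33 members tested, 17 were lower, against 4.93% of all genes, and 1 was higher, against 4.31%. The members' median log2 fold change was -0.65, beside 0.02 for all genes tested. All 18 called members had HFD libraries that did not overlap with the NCD libraries. With 3 against 2 libraries such separation is easily reached, and the share of all genes with it was not counted. Here and below it adds nothing to the calls, which come from the same libraries. By role, 2 of 5 SREBP regulators, 5 of 7 mevalonate steps, 8 of 11 squalene and ring steps and 2 of 7 measured fatty acid genes were lower, and 0 of 3 transport genes.

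Of the regulators, Srebf2 stood at 119, 115 and 114 CPM in the HFD libraries and at 272 and 245 CPM in the NCD libraries. The HFD values were within a few CPM of each other and all far below the lower NCD library. The log2 fold change was -1.13 ± 0.13 (SE, edgeR adjusted p = 2.48e-06). Insig1, itself a target of SREBP, was at 48.2, 52.9 and 47.8 CPM with HFD and 143.9 and 141.1 CPM with NCD (-1.49 ± 0.26, adjusted p = 0.000438). As for Srebf2, the libraries of each diet lay close together and the diets were well apart. Srebf1 (-0.44 ± 0.14, adjusted p = 0.0555), Scap and Insig2 did not pass the test.

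Among the mevalonate steps, Hmgcs1, which condenses acetyl units into HMG-CoA, was at 63.8, 69.9 and 53.8 CPM with HFD and 179 and 250 CPM with NCD. Its log2 fold change was -1.75 ± 0.29 (edgeR adjusted p = 0.000509). Idi1, which isomerizes the first isoprenoid, was at 0.723, 2.64 and 2.14 CPM with HFD and 6.73 and 11.1 CPM with NCD. Its fall of 2.24 ± 0.49 on the log2 scale (adjusted p = 0.00276) rests on low counts, 4 to 15 per HFD library. Fdps, which joins isoprenoids into farnesyl diphosphate, was at 5.42, 5.80 and 5.00 CPM with HFD and 13.7 and 16.0 CPM with NCD (-1.42 ± 0.34, adjusted p = 0.00559). For all of these, the highest HFD library was below the lowest NCD library. Mvd and Acat2 were lower as well (-0.92 ± 0.23 and -0.97 ± 0.28), the latter not without NCD replicate 3 or HFD replicate 2 or 3, while Mvk (-0.64) and Pmvk (-0.14) did not pass.

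Among the squalene and ring steps, Sqle, the squalene epoxidase that catalyses a rate-limiting oxygenation, had the largest fall of all members. It was at 14.6, 27.8 and 18.3 CPM with HFD and 96.6 and 127.5 CPM with NCD. The log2 fold change was -2.43 ± 0.29 (edgeR adjusted p = 5.62e-06), and the highest HFD value was less than any value of the 11 NCD libraries in VAT. Hsd17b7 was at 16.6, 18.1 and 13.8 CPM with HFD and 47.3 and 61.9 CPM with NCD (-1.72 ± 0.28, adjusted p = 0.000137). Cyp51, the lanosterol demethylase, was at 38.3, 72.2 and 60.5 CPM with HFD and 128 and 224 CPM with NCD (-1.60 ± 0.29, adjusted p = 0.00117). Lss, which closes the ring, was at 18.6, 20.6 and 11.4 CPM with HFD and 44.6 and 52.4 CPM with NCD (-1.49 ± 0.31, adjusted p = 0.00203). Cyp51 spread widely within each diet, and in all of these genes the HFD libraries lay below the NCD libraries.

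Fdft1, the squalene synthase, was at 20.4, 30.6 and 27.4 CPM with HFD and 47.1 and 68.0 CPM with NCD (-1.11 ± 0.22, edgeR adjusted p = 0.00126). Msmo1, a methylsterol oxidase, was at 53.1, 56.1 and 38.3 CPM with HFD and 91.6 and 117 CPM with NCD (-1.06 ± 0.22, adjusted p = 0.00163). In both genes HFD libraries lay below NCD libraries. Nsdhl and Sc5d, later enzymes of the ring, also fell (-0.98 ± 0.25 and -0.65 ± 0.15), whereas Tm7sf2 (-1.28 ± 0.61, adjusted p = 0.217), Dhcr7 (-0.43) and Ebp (-0.27) did not pass.

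Abca1, which loads cholesterol onto apolipoproteins at the cell surface, went the other way, at 17.3, 52.2 and 47.1 CPM with HFD and 9.04 and 5.65 CPM with NCD. The HFD libraries differed among themselves, replicate 1 being the lowest, and all 3 were above both NCD libraries (2.42 ± 0.47, edgeR adjusted p = 0.000975). Abcg1 had a log2 fold change of 0.80 ± 0.27 (adjusted p = 0.0629) and Stard4, a cytosolic sterol carrier, of -0.59 ± 0.20 (adjusted p = 0.0624). Of the fatty acid genes, those that supply acetyl-CoA were lower, Acss2 from acetate (-0.82 ± 0.19, adjusted p = 0.00527) and Acly from citrate (-0.38 ± 0.12, adjusted p = 0.0362). The call of Acly was kept in 1 of 5 fits that each left out 1 library, the one without HFD replicate 1, and its adjusted p reached 0.194 without NCD replicate 3. Acaca and Fasn, which build the chain, had log2 fold changes of -0.60 and -0.23 without passing, and the elongase Elovl6 and the desaturases Scd2 and Fads1 did not pass either (-0.07, 0.31 and 0.79).

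**Figure D2:**
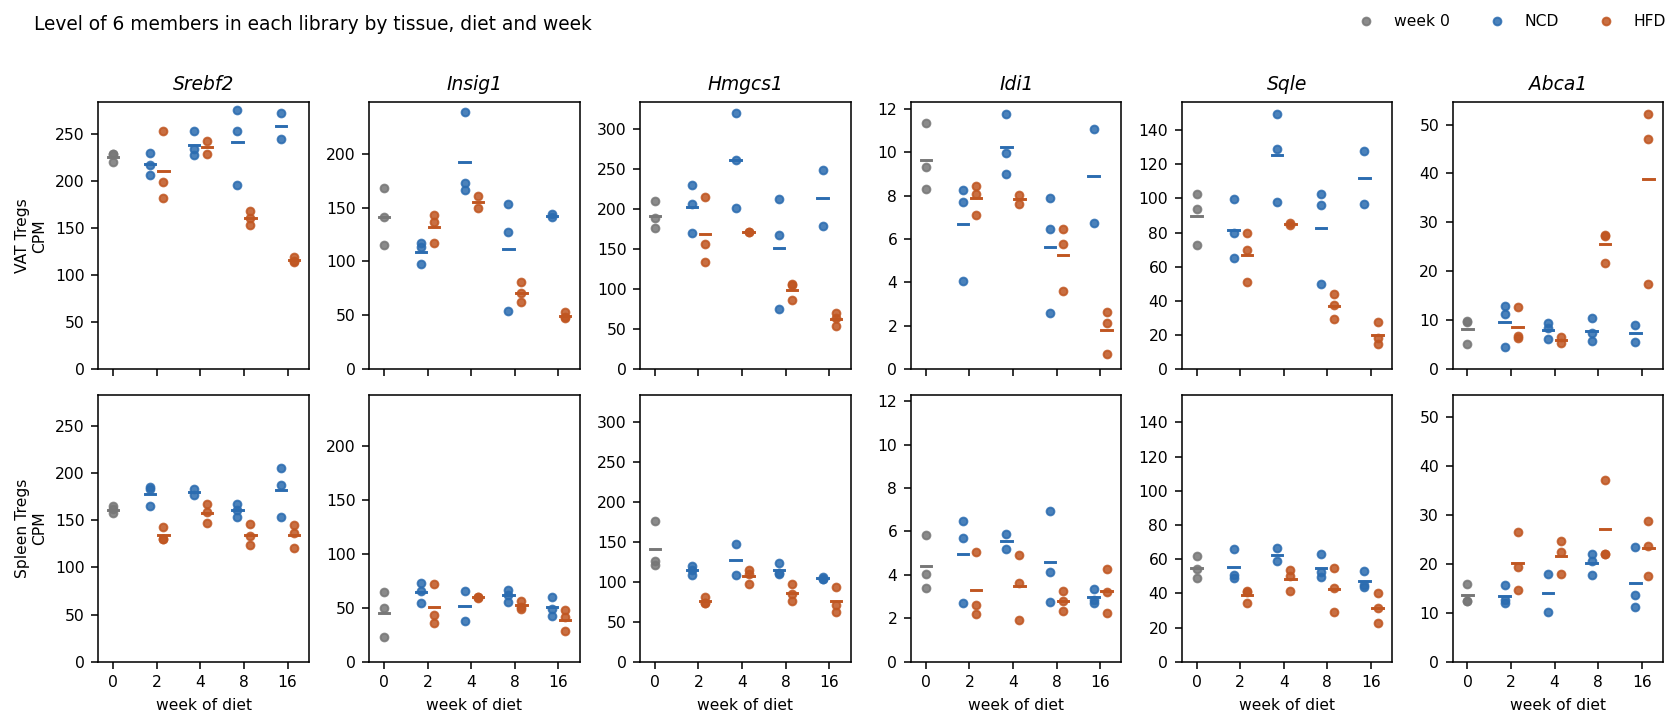
Level of 6 members in every mouse library (points, CPM on linear axes from 0) by week of diet, with VAT above and spleen below; grey is week 0, blue NCD, orange HFD, and bars are group means. In VAT the orange points of Srebf2, Insig1, Hmgcs1, Idi1 and Sqle fall away from the blue ones by week 16 and those of Abca1 rise, while in spleen the groups lie closer together.

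Among 41 further genes of these pathways, 36 were measured in VAT. At week 16, 6 were lower, against 4.93% of all genes, and 1 was higher, against 4.31%. Rdh11, a retinol dehydrogenase, fell by 0.94 ± 0.18 on the log2 scale (edgeR adjusted p = 0.000652). Elovl1, an elongase of saturated chains, fell by 0.80 ± 0.16 (adjusted p = 0.0012). Mid1ip1, which activates acetyl-CoA carboxylase, fell by 0.99 ± 0.21 (adjusted p = 0.00184), and Soat1, which esterifies cholesterol for storage, by 0.64 ± 0.16 (adjusted p = 0.00734). The median of the 36 was -0.29.

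Other genes moved with the same contrast. A list of 20 stress genes, immediate early or heat shock, had 12 lower with HFD (median log2 fold change -1.34), and their summed level was 10051, 21726 and 13632 CPM in the HFD libraries against 34554.5 and 34247 CPM in the NCD libraries. With the mean of these genes as a covariate, 2 of the 18 members stayed past the threshold, Srebf2 and Abca1, among 113 genes in all, and the members' median was -0.82. Sqle had -2.19 (adjusted p = 0.0609) and Hmgcs1 -1.84 (adjusted p = 0.157) in that fit. Leaving out NCD week 16 replicate 3 gave 8 called members, and Idi1, Fdps, Cyp51, Fdft1 and Msmo1 were among the 10 no longer called. The summed level of the 18 mevalonate, squalene and ring genes was 568, 586 and 510 CPM with HFD and 1093 and 1415 CPM with NCD.

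Markers of other cells were summed in the same libraries. B cell genes summed to 1718 to 2584 CPM with HFD and 369 to 377 CPM with NCD, with 1 of 9 measured called higher. Among the definers, Pax5 was at 0 in these 5 libraries and Cd22 in those with NCD. Macrophage genes summed to 4.16 to 8.33 and 2.03 to 3.66 CPM, with Fcgr1 at 0 in both diets and none of 3 measured called. Adipocyte genes summed to 75.9 to 129.7 and 104 to 109 CPM, with Adipoq, Cfd, Lep, Retn, Cidec, Adig, Car3 and Slc2a4 at 0 in both. In that list 1 of 3 measured was lower, Fabp4. Stromal genes summed to 56.4 to 114 and 16.0 to 24.2 CPM (1 of 3 measured higher), with Col3a1 and Lum at 0 in both and Col1a2 at 0 with HFD. Dpp4 of this list averaged 130 CPM in spleen Tregs at HFD week 16, where the list summed to 115 to 155 CPM. Endothelial genes summed to 78.2 to 144 CPM with HFD and 36.6 to 39.4 CPM with NCD, with 1 of 2 measured higher, Pecam1 (1.72 ± 0.27, edgeR adjusted p = 0.000134), while Cdh5, Kdr and Cldn5 were at 0 with HFD. Dendritic cell genes summed to 21.7 to 29.7 and 13.1 to 13.3 CPM, with Zbtb46 higher (4.75 ± 0.78, adjusted p = 0.000178) and Itgax and Clec9a at 0 in both. NK and CD8 cell genes summed to 40.2 to 94.7 and 47.7 to 49.6 CPM (1 of 6 measured higher), with Cd8a at 0 in both. Of the Treg genes, 6 of 12 were lower, and 2 of 16 cell cycle genes were higher. Pparg, the marker of VAT Tregs, was among the lower ones (-1.86 ± 0.35, edgeR adjusted p = 0.00136). It was at 18.2, 54.1 and 23.6 CPM with HFD and 125 and 113 CPM with NCD. The part of all these marker genes in the members' changes was not tested.

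**Figure D3:**
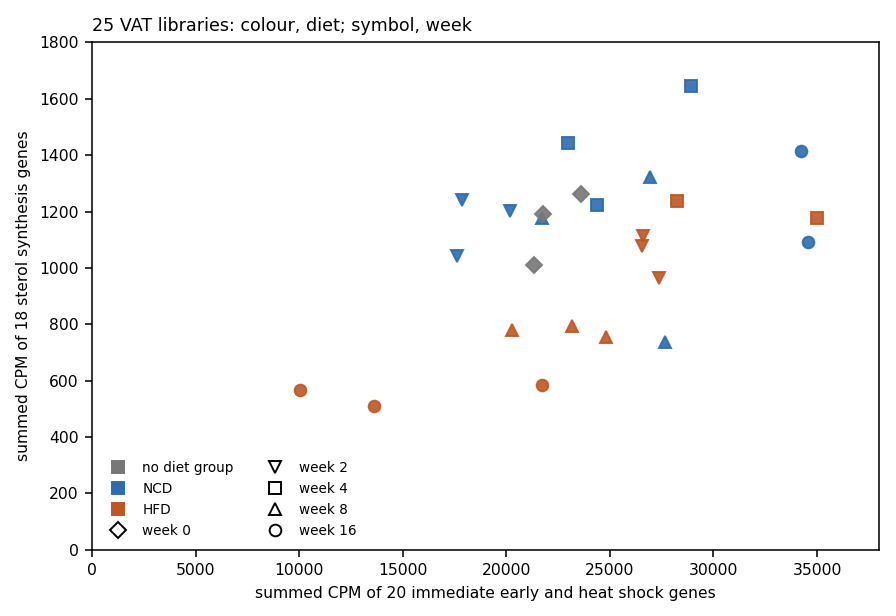
Summed CPM of 18 sterol synthesis genes (vertical) against that of 20 immediate early and heat shock genes (horizontal) in the 25 VAT libraries; colour is diet and symbol is week. The 3 HFD week 16 libraries have the lowest sterol sums (510 to 586 CPM), and NCD week 8 replicate 3 lies near the HFD week 8 libraries.

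The weeks before showed how the difference came in. At week 2 no member passed edgeR's test in VAT (1 had an unadjusted p under 0.05, and DESeq2 called 0), with 0.0565% of all genes called. At week 4 none passed either (5 had an unadjusted p under 0.05, DESeq2 0), with 0.0212% of all genes called. The members' medians were -0.06 and -0.15. At week 8 Srebf2 and Sqle were lower, against 0.501% of all genes, and Abca1 was higher, against 0.833%, with a median of -0.34. Srebf2 was at 153, 167 and 161 CPM with HFD and 253, 275 and 195 CPM with NCD (-0.59 ± 0.12, adjusted p = 0.00879). Sqle was at 29.7, 43.8 and 37.7 CPM against 96.1, 102 and 49.7 CPM (-1.16 ± 0.26, adjusted p = 0.0221). Abca1 was at 27.3, 21.7 and 27.5 CPM against 10.4, 5.75 and 7.51 CPM (1.67 ± 0.40, adjusted p = 0.0314). None of the 3 overlapped, although NCD replicate 3 was the library nearest to HFD for Srebf2 and Sqle. That library was low for other members as well, with Hmgcs1 at 75.3 CPM against 168 and 212 CPM, and Insig1 at 54.4 CPM against 154 and 128 CPM in the others. Without it, 7 members were called at week 8, and without NCD replicate 2 or HFD replicate 1, none. Abca1 was also not called without NCD replicate 3 or HFD replicate 2 or 3, and Sqle not without NCD replicate 1 or HFD replicate 3.

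Whether the effect of HFD was larger at week 16 than at weeks 2 and 4 was tested directly. It was lower at week 16 for 13 members, against 5.22% of all genes, and higher for Abca1, against 4.09%. Srebf2 differed by -1.10 ± 0.16 (log2, SE, edgeR adjusted p = 3.5e-05) and Sqle by -2.01 ± 0.34 (adjusted p = 0.00038). Hsd17b7 differed by -1.82 ± 0.33 (adjusted p = 0.000582) and Acss2 by -1.15 ± 0.23 (adjusted p = 0.00146). Of the markers, Pecam1 (1.82) and Zbtb46 (5.01) were higher in this comparison too, as were Cd79b, Ighm, Gzma, Prf1 and Dpp4. Xcr1, of the same dendritic cell list as Zbtb46, was lower (-2.06), and so was Fabp4. The Treg genes Ctla4, Il2ra, Klrg1, Il1rl1, Areg, Pparg and Gata3 were lower as well. With the stress gene covariate 1 of these 14, Abca1, stayed past the threshold, while Srebf2 had -1.18 (adjusted p = 0.0739), Insig1 -1.54 (adjusted p = 0.257) and Sqle -1.72 (adjusted p = 0.239). Without NCD week 16 replicate 3 there were 6, without HFD week 16 replicate 3 there were 9.

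Averaged over the 4 weeks with equal weights, 13 members were lower, against 1.86% of all genes, and Abca1 was higher, against 2.34%, with a median of -0.27 beside -0.01. Sqle was at 49.3 ± 26.6 CPM over 11 HFD and 99.3 ± 28.7 CPM over 11 NCD libraries (-1.11 ± 0.14, edgeR adjusted p = 2.77e-05), and Srebf2 at 175.6 ± 50.2 and 236.7 ± 25.5 CPM (-0.44 ± 0.06, adjusted p = 7.89e-05). Fdps fell by 0.82 ± 0.16 (adjusted p = 0.00259) and Cyp51 by 0.77 ± 0.14 (adjusted p = 0.00275). The ranges of the diets overlapped for each of these. With week 16 left out of the mean, of the 14 only Sqle was called, and without NCD week 16 replicate 3 there were 9. Hacd3, a dehydratase of fatty acid elongation, was the 1 further pathway gene that rose (0.26 ± 0.06, adjusted p = 0.0113), and Aacs, Elovl1 and Mid1ip1 fell.

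**Figure D4:**
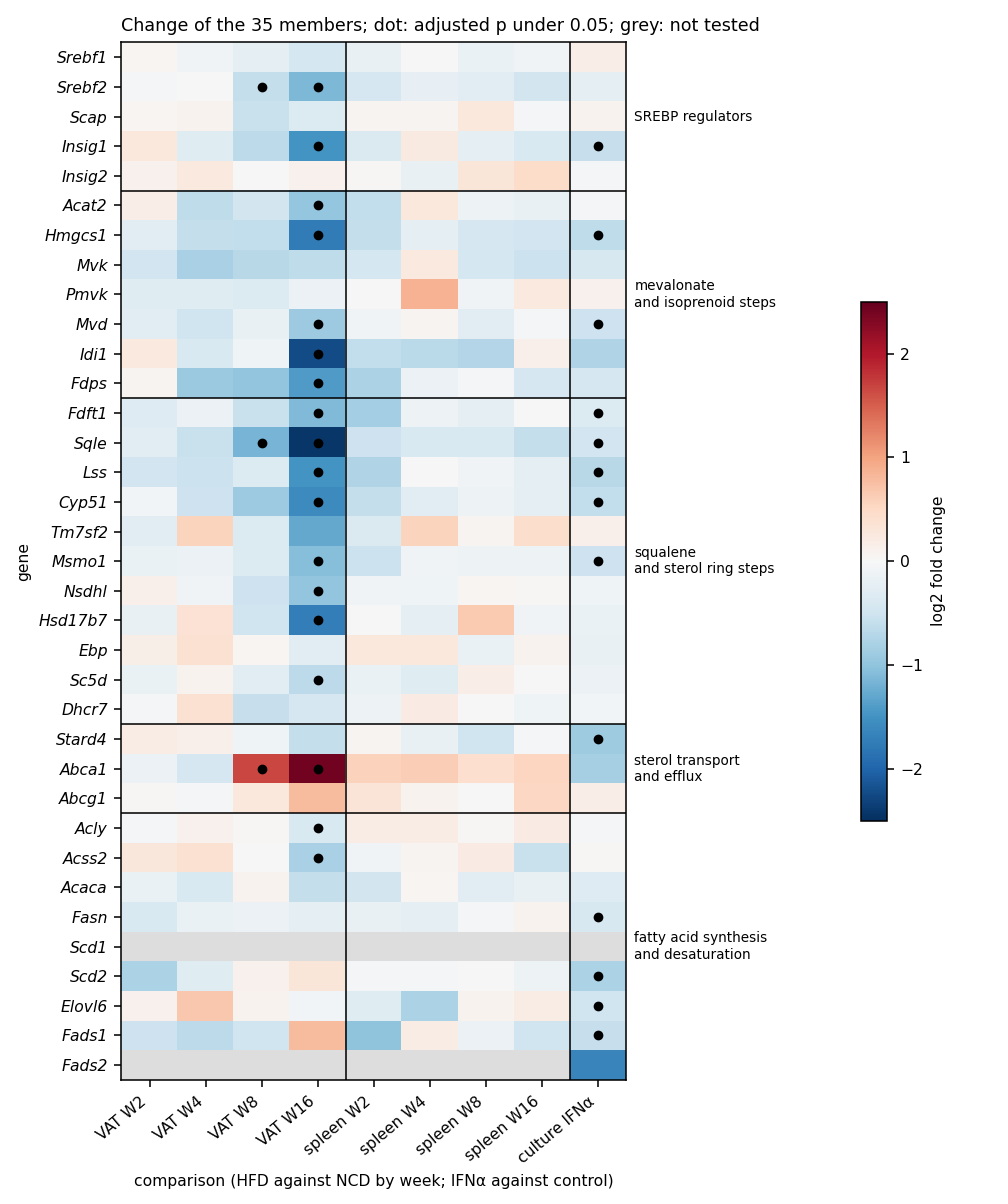
Log2 fold change of the 35 members (rows, by role) in 9 comparisons (columns), with blue lower and red higher; a dot marks a member called by edgeR and grey one that was not tested. Of the weeks in VAT, week 2 and week 4 have no dot, week 8 has 3 and week 16 has 18, the spleen columns have none, and the culture column has 13.

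Week 0 gave a second reference for VAT week 16. It shares the HFD libraries with the comparison above, and the NCD and HFD comparisons with week 0 share the week 0 libraries. From week 0 to NCD week 16 no member was called by edgeR (DESeq2 0, 2 with an unadjusted p under 0.05), with 0.713% of all genes called and a median of 0.02. From week 0 to HFD week 16, 15 members were lower, against 2.62% of all genes, and 2 were higher, against 2.51%, with a median of -0.55. Srebf2 was at 228, 220 and 228 CPM at week 0, above the 3 HFD libraries given above (-0.95 ± 0.12, adjusted p = 3.45e-05). Sqle was at 93.7, 72.9 and 103 CPM at week 0 (-2.13 ± 0.27, adjusted p = 4.85e-05). Fdps was at 24.7, 18.9 and 17.3 CPM (-1.89 ± 0.31, adjusted p = 0.000411), and Insig1 at 140.8, 115 and 168 CPM (-1.50 ± 0.24, adjusted p = 0.000512). In each of the 4, all week 0 libraries were above all HFD week 16 libraries. Besides Abca1, Abcg1 rose, from 98.3, 107.9 and 74.9 CPM at week 0 to 195, 168 and 213.5 CPM (1.04 ± 0.24, adjusted p = 0.00991). Of the stress genes 6 of 20 were lower in this comparison (median -0.70), and with them as a covariate 4 members stayed past the threshold. In that fit Insig1 had -1.53 (adjusted p = 0.0526) and Hmgcs1 -1.66 (adjusted p = 0.0663). Without week 0 replicate 3, 11 members were called. Abcg1 was not called without week 0 replicate 3 or HFD week 16 replicate 3.

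In spleen Tregs the same diets gave small differences. No member passed edgeR's test at week 2 (9 with an unadjusted p under 0.05, DESeq2 2, 0.0272% of all genes called), week 4 (2, DESeq2 0, 1.24%), week 8 (3, DESeq2 0, 0%) or week 16 (5, DESeq2 1, 0%). In the mean over the weeks, 3 were lower, against 0.32% of all genes, with a median of -0.11. Srebf2 fell by 0.33 ± 0.06 on the log2 scale (adjusted p = 0.00561), from 153 to 205 CPM with NCD (median 176) to 120 to 167 CPM with HFD (median 140). Hmgcs1 fell by 0.44 ± 0.08 (adjusted p = 0.00956), from 114 ± 12.5 to 86.2 ± 16.2 CPM. Sqle fell by 0.47 ± 0.11 (adjusted p = 0.0335), from 54.3 ± 8.05 to 40.3 ± 9.75 CPM. The 11 NCD and 12 HFD libraries overlapped for all of these, and Abca1 did not pass (0.54, adjusted p = 0.0887). The call of Sqle was lost without any 1 of 10 libraries, namely NCD week 2 replicate 2, week 4 replicates 1 and 2, week 8 replicate 1 and week 16 replicate 3, and HFD week 2 replicate 2, week 4 replicate 3, week 8 replicates 1 and 2 and week 16 replicate 1.

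The difference between tissues in the effect of HFD was tested in a fit of both. At week 16 the stress genes Zfp36, Junb, Egr1, Dusp1, Ier3 and Jun had a lower effect in VAT. So did the Treg genes Il2ra, Il1rl1, Ctla4 and Areg and the dendritic cell gene Xcr1. Of the other markers, Cd79b, Zbtb46, Dpp4 and Pecam1 had a higher effect. No stress gene covariate was fitted here, and the part of these genes in the members' differences was not tested. Over the 4 weeks the difference passed for 1 member, Sqle, whose effect was lower in VAT by 0.66 ± 0.18 on the log2 scale (edgeR adjusted p = 0.0295), against 1.35% of all genes lower. At week 16 it passed for 9 members with a lower effect in VAT, against 2.32% of all genes, and for Abca1 with a higher one, against 2.14%. Sqle differed by -1.88 ± 0.36 (adjusted p = 0.000561), Srebf2 by -0.71 ± 0.16 (adjusted p = 0.00509), Cyp51 by -1.40 ± 0.33 (adjusted p = 0.00605) and Hmgcs1 by -1.30 ± 0.32 (adjusted p = 0.00931). Without NCD week 16 replicate 3 of VAT, 2 of these 10 were called, and without NCD week 16 replicate 2 or HFD week 16 replicate 3 of VAT, 6. The call of Sqle over the 4 weeks was lost without any 1 of 8 libraries: NCD week 2 replicate 1, NCD week 8 replicate 2, NCD week 16 replicate 3 or HFD week 4 replicate 2 or 3 in VAT, and NCD week 4 replicate 2, HFD week 4 replicate 3 or HFD week 16 replicate 2 in spleen.

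What interferon does to VAT Tregs was asked in culture. With IFNα, 13 of 34 members were lower, against 11% of all genes, and 0 were higher, against 10.6%, with a median of -0.37 beside 0.01. By role, 1 of 5 regulators, 2 of 7 mevalonate steps, 5 of 11 squalene and ring steps, 1 of 3 transport genes and 4 of 8 fatty acid genes fell. Stard4 was at 40.5 and 42.2 CPM with IFNα and 77.7, 79.7 and 71.9 CPM without (-0.89 ± 0.12, edgeR adjusted p = 1.39e-05). Cyp51 was at 135 and 145 CPM against 198, 240.0 and 207 CPM (-0.62 ± 0.10, adjusted p = 8.09e-05). Hmgcs1 was at 54.8 and 67.6 CPM against 99.2, 87.7 and 100.1 CPM (-0.64 ± 0.12, adjusted p = 0.000465). Scd2 was at 28.3 and 24.4 CPM against 46.7, 51.5 and 38.1 CPM (-0.80 ± 0.16, adjusted p = 0.000993). All IFNα libraries were below all controls for these 4.

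The fall in culture reached the fatty acid genes. Fasn, the fatty acid synthase (-0.41 ± 0.09, edgeR adjusted p = 0.00189), Elovl6 (-0.50 ± 0.11, adjusted p = 0.00181) and Fads1 (-0.58 ± 0.16, adjusted p = 0.0105) fell with Scd2. Insig1, Lss, Msmo1, Sqle, Mvd and Fdft1 fell by 0.35 to 0.70 on the log2 scale. Fads1 and Fdft1 were not called without control replicate 2 or IFNα replicate 1, and Fdft1 also not without control replicate 3. Srebf2 (136 ± 1.46 against 159 ± 8.26 CPM, -0.22 ± 0.09, adjusted p = 0.0865) and Srebf1 (0.17 ± 0.09, adjusted p = 0.21) did not pass, nor did Abca1, at 1.28 ± 0.30 and 2.19 ± 1.12 CPM. Of 37 measured further pathway genes 7 were lower, against 11% of all genes, and 3 were higher, against 10.6%. Among the lower were Soat1 (-0.78 ± 0.10, adjusted p = 5.67e-06) and Acsl3, an acyl-CoA synthetase (-2.76 ± 0.48, adjusted p = 0.000275). Tmem97, a sterol-regulated membrane protein, was lower too (-0.67 ± 0.15, adjusted p = 0.00226), and Coq2 of ubiquinone synthesis was higher (1.31 ± 0.21, adjusted p = 0.000103).

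Cell cycle genes moved with IFNα too, 11 of 16 being lower (median -0.64), with sums of 3044 to 3107 CPM against 3770 to 4744 CPM. The Treg genes summed to 8716 to 9079 CPM with IFNα and 10032 to 10447 CPM without (5 of 12 lower, 3 higher), and mitochondrial counts were 0.763% and 0.827% of the total against 1.05% to 1.16%. The part of the Treg genes and of mitochondrial RNA was not tested. With the mean of the cell cycle genes as a covariate no member was called, while 482 genes were in all, and the members' median was -0.33. The summed level of the 18 sterol synthesis genes was 818 and 925 CPM with IFNα and 1100.5, 1187.5 and 1137 CPM without.

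**Figure D5:**
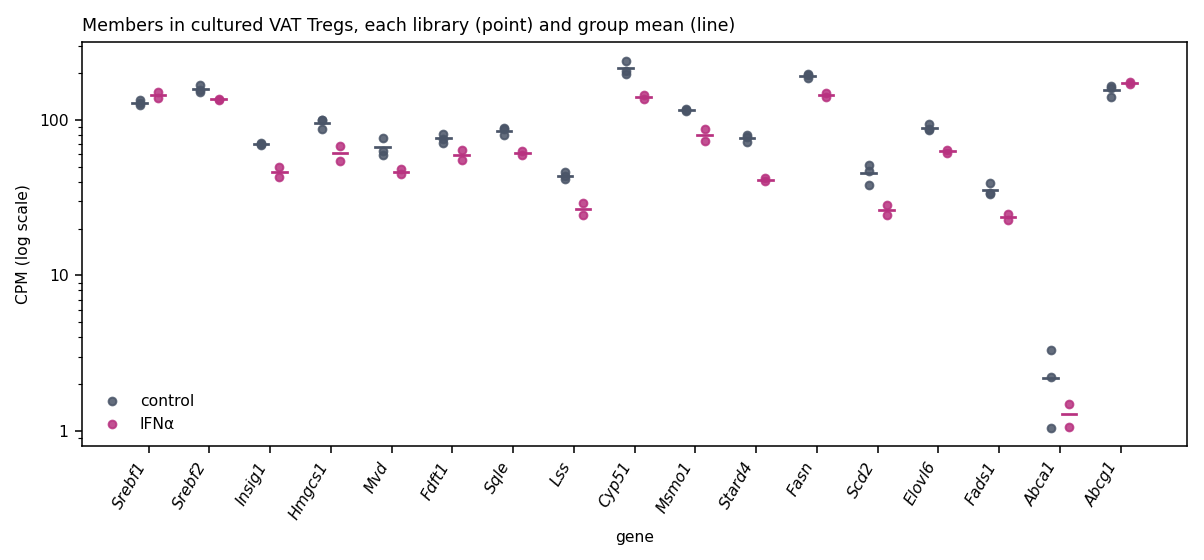
Level of 17 genes in each culture library (points, CPM on a log axis), with bars for group means. The IFNα points of Stard4, Cyp51, Hmgcs1 and Scd2 lie below all control points, and those of Abca1 overlap.

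Some values are uncertain because the sources used here do not say how shared reads were counted. In GENCODE M21 (mm10), 26.7% of the exon bases of Fdps overlap another gene model on the same strand, and 18.3% of those of Fdft1 overlap Ctsb on the opposite strand. The overlap was 13.2% for Scap, 12.1% for Hmgcs1 and Tm7sf2 and 9.2% for Idi1. Acss2 overlapped 3 genes, by 3.3%, 1.9% and 3.9%, and the remaining members with an overlap had under 4%. Acat2, Idi1 and Scd2 have near copies with which reads could be shared.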

How the data were processed

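The authors deposited raw counts per gene symbol for 56 libraries of 20 groups, made with STAR 2.7.3a and featureCounts on mm10, per the submitters' processing notes. The values were whole numbers. The sources used here name no annotation release or strand setting, nor how reads shared between genes were handled. Per the labels' protocols, RNA of 1000 sorted cells was amplified and libraries went through 18 PCR cycles, so counts include PCR copies.

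Groups came from the titles, with 0 columns left unmapped. Group means were fitted with edgeR 4.0.16 in R 4.3.3 (robust quasi-likelihood, TMM, low counts filtered with filterByExpr), separately for VAT (25 libraries, 14164 genes), spleen (26, 14686), both tissues (51, 15601) and culture (5, 12604). In each of 17 comparisons a call needed a p below 0.05 after Benjamini-Hochberg adjustment over all genes tested. A log2 fold change over the root of its F statistic gave the SE, and errors of means are SD. The fits were tested on simulated counts. No libraries of a group agreed within sampling noise. CPM per kb used exon bases of GENCODE M21, and the floor of 3 counts covers counting error only.

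The members and lists were chosen with earlier results of these data known. All members are named. Single values of some marker genes are not reported here. The 12 called in VAT at week 16 or in the VAT mean with the smallest p have values per library, and in every other comparison up to 4 called members, and up to 4 called pathway genes, are given by smallest p, apart from members named as not passing. Alternatives were RLE scaling, no filter, DESeq2 1.42.0, a replicate block and the loss of each library in turn. Chosen after seeing the data were a covariate of stress or cell cycle genes, means without week 16, a fit of only the 2 groups compared and voom in limma 3.58.1.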

Additional observations from a re-analysis of the deposited data

Results flagged for a closer look

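Differences between groups in the same contrast, each tested as such with edgeR's quasi-likelihood test and Benjamini-Hochberg adjustment, were as follows, in log2 units. The effect of HFD over the 4 weeks was lower in VAT than in spleen for Sqle (-0.657). At week 16 the effect of HFD in VAT minus that in spleen was -1.881 for Sqle, -0.711 for Srebf2, -1.398 for Cyp51, -1.304 for Hmgcs1, -0.611 for Acly, -1.138 for Fdft1, -2.406 for Idi1, -0.951 for Msmo1 and -1.69 for Hsd17b7, and 1.849 for the exporter Abca1. The effect of HFD in VAT at week 16 minus its mean at weeks 2 and 4 was -1.103 for Srebf2, -2.012 for Sqle, -1.816 for Hsd17b7, -1.151 for Acss2, -1.478 for Insig1, -2.163 for Idi1 and -1.312 for Hmgcs1. The same difference was -1.306 for Cyp51, -0.907 for Msmo1, -0.998 for Nsdhl, -0.61 for Sc5d, -0.873 for Fdft1 and -0.749 for Stard4, and 2.701 for Abca1. Acly passed between the tissues and not between the weeks, while Insig1, Acss2, Nsdhl, Sc5d and Stard4 passed between the weeks and not between the tissues. With each library left out in turn, the difference between weeks was called in 4 of 16 fits for Stard4, 7 of 16 for Fdft1, 8 of 16 for Nsdhl, 12 of 16 for Sc5d and 14 or 16 of 16 for the others. The difference between tissues at week 16 was called in 4 of 11 for Abca1 and Msmo1, 5 of 11 for Hsd17b7 and Idi1, 8 of 11 for Acly, 9 of 11 for Fdft1, and 10 or 11 of 11 for the others. The adjusted p-values of the 25 differences ran from 3.5e-05 to 0.0494. All rest in part on the 2 NCD week 16 libraries of VAT.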

How the results depend on the processing

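No called member changed sign under any alternative run: 1959 values kept their side of the threshold and 275 lost the call. Of the settings tried on all comparisons, RLE scaling moved no count of called members by over 1.5 times. DESeq2 called 5 members at VAT week 8 (3 in the main fit), 2 at spleen week 2, 1 at spleen week 16 and 5 in the spleen mean (3 in the main fit). Without the filter, 5 were called at VAT week 8, 6 in the spleen mean and 2 for the difference of mean effects between tissues. The stress gene covariate gave 2 at VAT week 16, 1 for week 16 minus weeks 2 and 4, and 4 for HFD week 16 against week 0. It was also run at VAT week 8, where Srebf2 and Abca1 stayed called, and in the VAT mean. In the mean Srebf2, Sqle, Hmgcs1, Fdps, Cyp51, Fdft1, Lss, Mvd and Abca1 stayed called. The outcome for the other called members of these comparisons is not given here. The mean without week 16 gave 1 in VAT, and the cell cycle covariate 0 in culture. In these fits the causes were not tested. Leaving out each library gave 0 to 7 members at VAT week 8, 8 to 19 at week 16, 9 to 17 in the VAT mean, 0 to 1 at spleen week 4, 2 to 4 in the spleen mean, 0 to 3 for the mean difference of tissues, 2 to 10 for that at week 16, 6 to 14 for week 16 minus weeks 2 and 4, 21 to 25 between tissues without HFD, 11 to 18 for HFD week 16 against week 0 and 11 to 14 in culture. Where 1 library was left in an arm, it was taken to spread as the rest did.

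Replicate numbers did not pair the libraries: same-numbered libraries of compared groups had correlations of -0.09 to 0.25, and no comparison had all above 0.1. With the number as a replicate block, 19 members were called at VAT week 16, 14 in the VAT mean, 3 in the spleen mean and 12 in culture.

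Depth limits Scd1, Fads2, Idi1 and, in culture, Abca1, which had few counts. At VAT week 16 there were 2 NCD libraries, and a member below the threshold there is not shown to be unchanged.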
